A study of Mus musculus with 2 samples.

Results

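The 9 genes described here cover the signal that drives branching of the ureteric tree in the developing kidney, with related ligand and co-receptor genes. The list holds the ligand genes Gdnf and Nrtn, the receptor tyrosine kinase gene Ret, the 4 co-receptor genes Gfra1, Gfra2, Gfra3 and Gfra4, and the transcription factor genes Etv4 and Etv5. They were taken from a list of gene symbols, matched to Ensembl identifiers through the GENCODE annotation, and all 9 were found among the 43346 mouse genes measured. Total RNA had been sequenced from whole kidneys of B6NCrl mouse embryos at embryonic day 15.5. The kidneys were healthy and untreated, and embryos of both sexes were pooled. The only group, embryonic kidney, held 2 libraries that the labels call biological replicates, 1 from 78 embryos (replicate 1) and 1 from 62 embryos (replicate 2), each made from 10 ng of RNA. The libraries held 36244861 and 39415002 expected counts, which are reads as shared out among genes by the quantifier.

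Glial cell line-derived neurotrophic factor (GDNF), the product of Gdnf, is secreted by the metanephric mesenchyme. It binds GFRα1, a protein anchored to the membrane by a lipid, and the complex activates RET on the epithelial cells at the tips of the ureteric bud. RET signalling raises the transcription factors ETV4 and ETV5, which are needed for tip cells to grow and branch, and RET is known in the embryo also for its part in enteric and sympathetic neurons.

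All 9 genes were detected, meaning that each reached 1 TPM in each of the libraries. TPM is a length-adjusted relative abundance, and levels below are TPM in replicate 1 and replicate 2, or mean ± SD (n = 2). The genes fell into an upper set of 3 (Gfra1, Etv4 and Etv5), all near 50 TPM, and a lower set of 6 between 1.62 and 13.79 TPM. For scale, 13387 of the 21474 protein-coding genes measured (62.3%) were detected by the same rule. Their median was 19.4 TPM in replicate 1 and 19.5 TPM in replicate 2. Because the tissue was sequenced in bulk, a lower level could come from fewer cells of a type or from less RNA per cell, and these cannot be told apart.

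**Figure D1:**
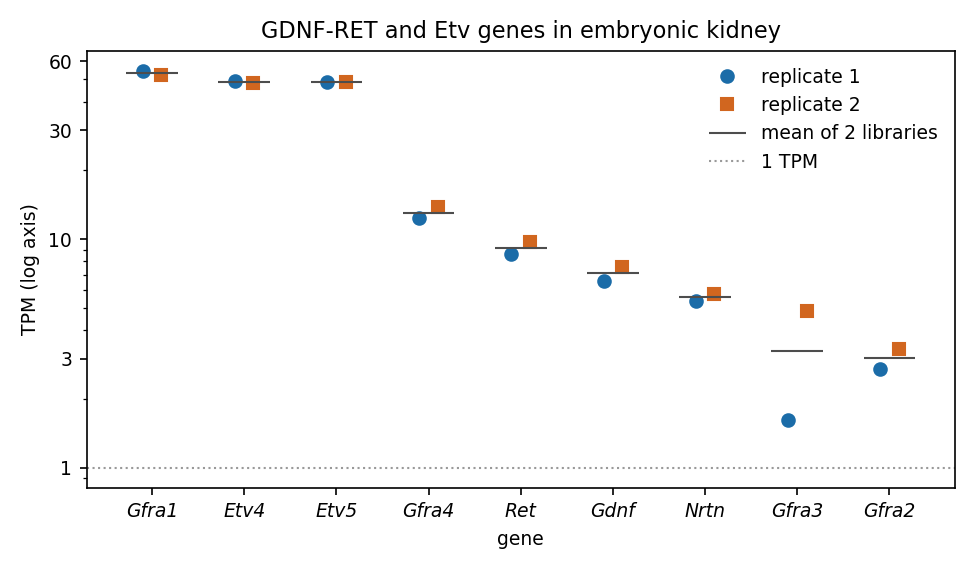
Level of each gene in TPM (log axis) in the replicate 1 library (circles) and the replicate 2 library (squares), with the mean of the 2 libraries as a bar and 1 TPM as a dotted line. Gfra1, Etv4 and Etv5 lie near 50 TPM, the other genes lie at 13.79 TPM or below, and Gfra3 has the widest gap between its libraries.

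Of the ligands, Gdnf (ENSMUSG00000022144.3; chr15:7810846-7837575, plus strand) stood at 6.59 and 7.58 TPM, from 550 and 682 expected counts. Its mean of 7.09 ± 0.700 TPM was above 25.2% of the detected protein-coding genes. Nrtn, which encodes neurturin, the preferred ligand of GFRα2 (ENSMUSG00000039481.5; chr17:56751325-56757530, minus strand), stood at 5.35 and 5.79 TPM, from 121 and 141 expected counts. Both ligands were somewhat higher in replicate 2. The difference between them, 0.30 ± 0.0567 on the scale of log2(TPM + 1), was below, in each library, the limit of 0.79 set by replicate error for genes of their level, so their order is not resolved. That limit is the log2 difference between the libraries that 95% of genes in the same range of TPM stayed within, in either direction. Among the 4 ligand genes of the family, Gdnf held 43.3% and 41.9% of the summed TPM, the other ligands being Nrtn, Artn and Pspn.

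Ret (ENSMUSG00000030110.9; chr6:118151745-118197718, minus strand) stood at 8.58 and 9.76 TPM, from 1460 and 1777 expected counts. Its mean of 9.17 ± 0.834 TPM was above 30.7% of the detected protein-coding genes. The receptor was thus in the lower set with its ligand: Ret exceeded Gdnf by 0.33 on the log2(TPM + 1) scale, within the limit of 0.79.

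The co-receptors were unequal. Gfra1, which encodes the co-receptor that GDNF prefers (ENSMUSG00000025089.11; chr19:58235604-58455909, minus strand), stood at 54.61 and 52.03 TPM, from 5049.19 and 5067.99 expected counts, above 76.9% of the detected protein-coding genes. It held 76.6% and 70.3% of the summed TPM of the 4 co-receptor genes. Per length, Gfra1 was 6.36 times as abundant as Ret in replicate 1 and 5.33 times in replicate 2, a difference in log2(TPM + 1) of 2.42 ± 0.167 that exceeded replicate error. Its excess over Gfra2 was 20.1-fold and 15.7-fold in TPM, over Gfra3 it was 33.7-fold and 10.7-fold, and over Gfra4 it was 4.42-fold and 3.77-fold. All 3 differences exceeded replicate error. The share and the folds over Gfra4 are for whole genes. In protein-coding transcripts alone, a measure chosen after seeing the data, Gfra1 was at 54.28 and 52.01 TPM and Gfra4 at 0.60 and 0.78 TPM.

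Gfra2, the gene of the neurturin co-receptor (ENSMUSG00000022103.9; chr14:70890120-70979838, plus strand), stood at 2.72 and 3.31 TPM, from 224 and 294 expected counts. Gfra4, the gene of the persephin co-receptor (ENSMUSG00000027316.11; chr2:131039632-131043088, minus strand), stood at 12.35 and 13.79 TPM, from 384 and 459 expected counts. Gfra4 was therefore the second most abundant co-receptor gene at the level of the whole gene, but nearly all of this level lay in transcripts that keep an intron, as described below.

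Gfra3, the gene of the co-receptor for artemin (ENSMUSG00000024366.7; chr18:34689898-34720387, minus strand), stood at 1.62 TPM in replicate 1 and 4.85 TPM in replicate 2, from 75 and 242 expected counts. It was lower than Gfra2 in replicate 1 and higher in replicate 2. The mean difference between them was -0.03 ± 0.669 on the log2(TPM + 1) scale.

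The 2 transcription factor genes, which encode ETS-domain proteins of the PEA3 family, were nearly equal at the level of the whole gene, though not in protein-coding transcripts alone, as described below. Etv4 (ENSMUSG00000017724.10; chr11:101769742-101785371, minus strand) stood at 49.17 and 47.98 TPM, from 2052 and 2218 expected counts. Etv5 (ENSMUSG00000013089.11; chr16:22381309-22439719, minus strand) stood at 48.54 and 48.48 TPM, from 4560 and 4955 expected counts. Etv5 drew more counts than Etv4 at the same TPM, and its main transcript is the longer (3975 against 2395 nt). Etv4 exceeded Ret 5.73-fold and 4.92-fold in TPM, and Etv5 exceeded Ret 5.66-fold and 4.97-fold, both beyond replicate error. Etv1, the third gene of that family, chosen for mention after its values were seen, was at 8.52 and 10.9 TPM, or 8.02% and 10.2% of the 3 genes' summed TPM.

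From highest to lowest mean, the order was Gfra1, Etv4, Etv5, Gfra4, Ret, Gdnf, Nrtn, Gfra3 and Gfra2. Of the 8 neighbouring pairs in this order, 1 differed beyond replicate error: Etv5 exceeded Gfra4 by 1.82 ± 0.106 on the log2(TPM + 1) scale, against a limit of 0.37. The other steps were not resolved, and Etv4 with Etv5, and Gfra3 with Gfra2, changed places between the libraries. Over all 36 pairs, 24 differed beyond replicate error in both libraries. These pairs reuse the same genes, and the rule was not applied to pairs of other genes, so nothing is read from that count. Ret and Nrtn (0.63 ± 0.0502), Gfra4 and Ret (0.47 ± 0.0140) and Gdnf and Nrtn were among the pairs that did not differ. The limit was set on plain TPM ratios, and the added 1 narrows differences at low levels. Gfra4 over Gdnf (1.87-fold and 1.82-fold) and Nrtn over Gfra2 (1.97-fold and 1.75-fold) passed the 1.73-fold limit in plain TPM but not by this rule.

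Between the 2 kidney pools, 8 of the 9 genes had a ratio within replicate error and Gfra3 did not. The limit was taken from these same 2 libraries, so 95% of genes of like level lie within it by construction. Nothing is therefore read from the count of 8. The TPM ratio of replicate 2 to replicate 1 was 0.999 for Etv5 (95% exact counting interval 0.959 to 1.04), 0.976 for Etv4 (0.919 to 1.04) and 0.953 for Gfra1 (0.916 to 0.991). The ratio was above 1 for the 6 genes of the lower set. It was 1.08 for Nrtn, 1.12 for Gfra4, 1.14 for Ret (1.06 to 1.22), 1.15 for Gdnf (1.03 to 1.29) and 1.22 for Gfra2 (1.02 to 1.45). The intervals, from the Clopper-Pearson method, cover counting error of reads only, not variation between pools or libraries. They may be too narrow even for that, because several reads can stem from 1 molecule where no molecular identifiers were used. For Gfra1, Ret, Gdnf and Gfra2 the interval did not include 1, yet their ratios lay inside the fold that 95% of genes of like level stayed within, which was 1.20 for genes of 30 to 100 TPM and 1.73 for genes of 3 to 10 TPM.

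The Gfra3 ratio was 2.99 (2.30 to 3.93), past the 1.73-fold limit of its range, and 1.02% of the 18233 genes tested had a ratio as high. Gfra3 was the 1 gene of the 9 (11.1%) past 1.5-fold in either direction. Over all genes with a mean of 10 or more expected counts, 11.5% were past 1.5-fold. Over the 13504 genes with a mean of 100 or more, which include all 9, the share was 3.12%. The background thus depends on the depth of the genes it is taken over, and nothing is read from the count of 1 in 9. No p was computed for it, since the smallest exact 2-sided p that 2 libraries allow is 0.5.

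**Figure D2:**
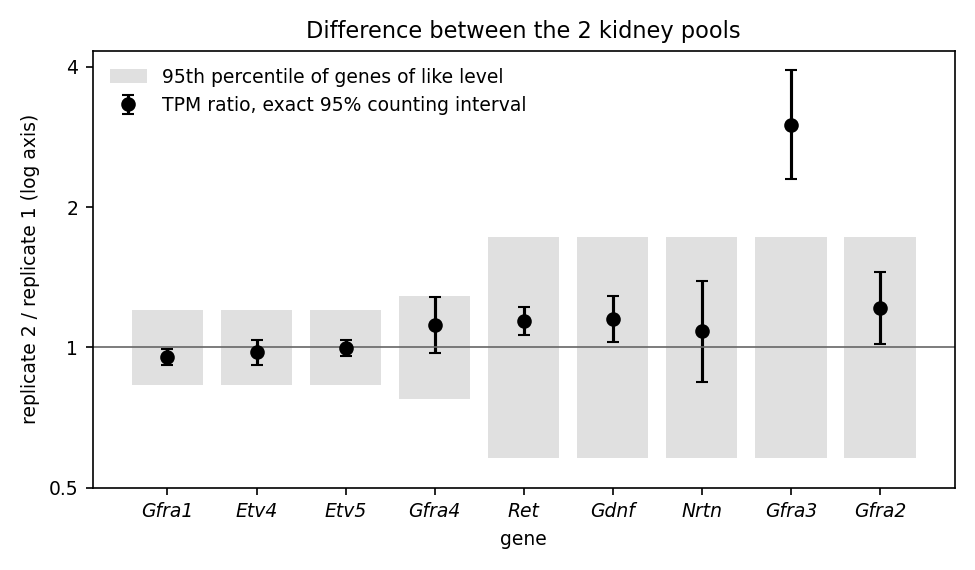
TPM in replicate 2 divided by TPM in replicate 1 (log axis) for each gene, with the exact 95% counting interval as a bar. Grey boxes span the 95th percentile of that ratio, in either direction, over genes of like level: 8 genes lie inside their box and Gfra3, at 2.99, lies above it.

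Markers of several other cell types also differed between the pools. The 10 markers of sympathetic neurons and chromaffin cells, where RET and its co-receptors are also known to act, summed to 46.91 TPM in replicate 1 and 147.85 TPM in replicate 2, a ratio of 3.15. Of these, 9 of 10 were past 1.5-fold and higher in replicate 2. Th, which encodes the first enzyme of catecholamine synthesis, stood at 4.48 and 28.71 TPM, and the exception was Elavl4, a neuronal RNA-binding protein gene, at 12.81 and 12.03 TPM. The 6 adrenal cortex markers summed to 44.87 and 149.18 TPM (ratio 3.32), with 6 of 6 past 1.5-fold.

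Markers of Schwann cells and glia summed to 18.72 and 26.46 TPM, with 3 of the 6 tested past 1.5-fold, and 4 of the list's 7 genes were below 1 TPM in both libraries, Sox10 (0.33 and 0.78 TPM) and Foxd3 (0.13 and 0.14 TPM) among them. Skeletal muscle markers went the other way, from 295.42 to 160.13 TPM, with 4 of 5 past 1.5-fold. Markers of ureteric trunk and collecting duct, of cap mesenchyme and of stroma showed smaller differences. The summed ratio was 0.910 for trunk and collecting duct (1 of 8 past 1.5-fold, the water channel gene Aqp2 at 54.38 and 34.49 TPM). It was 0.974 for cap mesenchyme (0 of 5) and 1.01 for stroma (0 of 5). The trunk list does not stand for the ureteric tip, where RET is activated. The part of any of these cell types in the Gfra3 difference was not tested.

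**Figure D3:**
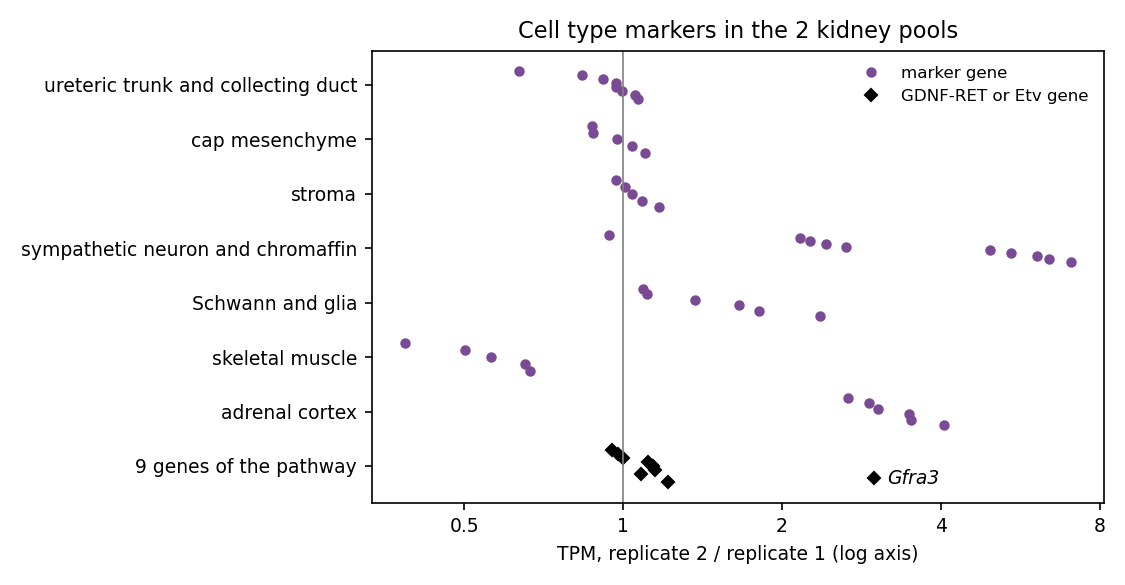
TPM in replicate 2 divided by TPM in replicate 1 (log axis) for each marker gene with a mean of 10 or more expected counts (dots), by cell type list, and for the 9 genes of the pathway (diamonds). Gfra3, at 2.99, lies among the sympathetic and adrenal cortex markers, and the other 8 genes lie between 0.953 and 1.22.

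The transcript tables divided the 9 genes into 40 transcripts, of which 17 held 10% or more of their gene's TPM in either library. Gdnf, Nrtn, Gfra2 and Gfra3 had a single transcript each, and Etv5 was almost entirely Etv5-201 (98.85% and 100%). Ret, Gfra1, Etv4 and Gfra4 each had several.

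Ret produced its 2 classical forms, RET9 and RET51, which share all but their last amino acids. In the mouse, RET9 is the form best known for supporting kidney development. The ends of the 2 coding regions are shown because they are what tells the forms apart. Each run is 5′ to 3′ on the minus strand of mm10, from the GENCODE M21 transcripts, with the last shared bases in lower case and the bases of that form alone in capitals, without the stop codon. The capitals lie at chr6:118155259-118155287 for RET9 and chr6:118153856-118154010 for RET51.
RET9: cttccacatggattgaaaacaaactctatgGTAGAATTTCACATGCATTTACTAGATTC
RET51: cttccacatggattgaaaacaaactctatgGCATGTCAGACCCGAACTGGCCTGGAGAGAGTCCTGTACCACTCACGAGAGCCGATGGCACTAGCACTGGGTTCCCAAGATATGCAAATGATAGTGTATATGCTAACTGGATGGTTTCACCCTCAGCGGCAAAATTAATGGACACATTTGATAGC

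RET9 was the more abundant form in both libraries. Ret-202, the RET9 transcript, was at 6.62 and 7.18 TPM, or 77.12% and 73.62% of the gene. Ret-201, the RET51 transcript, was at 1.96 and 2.57 TPM, or 22.88% and 26.38%. RET9 thus stood 3.38-fold and 2.79-fold above RET51. The change of 3.52 percentage points between the pools was small against the 27.3 points that 95% of transcript shares in genes of 3 to 10 TPM stayed within. The coding regions run to 1073 codons for RET9 and 1115 for RET51. Both transcripts were longer in the annotation behind the tables (7341 nt for RET9 and 6064 nt for RET51) than in the release used for sequence (4497 and 5456 nt). The extra bases are not analysed here, so the split rests partly on sequence outside the runs above. The TPM of Ret and its ratios to other genes also rest on the longer lengths, a choice that replicate error does not cover.

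Gfra1 was read in forms with and without a 15-nt exon, at chr19:58392573-58392587. Leaving it out removes 5 codons and keeps the reading frame. The junctions are shown 5′ to 3′ on the minus strand of mm10, with the optional exon in capitals.
Gfra1 with the short exon: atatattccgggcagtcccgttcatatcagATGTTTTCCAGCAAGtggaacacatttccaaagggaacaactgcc
Gfra1 without the short exon: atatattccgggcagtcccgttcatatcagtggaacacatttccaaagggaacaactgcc

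The form without the exon, Gfra1-203, was the larger in both libraries, at 26.38 and 27.17 TPM, or 48.3% and 52.2% of the gene. The 4 transcripts with the exon summed to 20.01 and 16.04 TPM, or 36.6% and 30.8%, mainly Gfra1-201 (32.18% and 27.66%). The remaining 15.1% and 16.9% lay in 4 incomplete models that do not reach the exon, chiefly the 841-nt Gfra1-204 (11.75% and 14.02%). The fall of 5.79 points in the form with the exon from replicate 1 to replicate 2 was within the 10.9 points that 95% of shares in genes of 30 to 100 TPM stayed within.

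Etv4 was read from 12 transcripts, and its complete coding forms differ at a splice acceptor that adds 18 nt, or 6 codons, at chr11:101774228-101774245. The runs are 5′ to 3′ on the minus strand of mm10, with the bases that the upstream acceptor adds in capitals.
Etv4 long acceptor: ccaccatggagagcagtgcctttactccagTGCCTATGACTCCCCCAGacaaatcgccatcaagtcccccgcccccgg
Etv4 short acceptor: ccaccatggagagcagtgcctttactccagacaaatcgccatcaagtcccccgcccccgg

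The long form led in both libraries: Etv4-201 and Etv4-212 together held 39.4% and 46.1% of the gene's TPM, most of it in Etv4-201 (17.14 and 19.83 TPM). The short form, Etv4-202, held 26.71% and 22.28% (13.13 and 10.69 TPM). The shift of 6.73 points in the long form between the pools was within the 10.9-point limit. The remaining 33.9% and 31.6% of the TPM, outside the protein-coding class, lay in 9 transcripts that the annotation classes as processed, without a coding region, of which Etv4-207 (12.49% and 15.11%), Etv4-211 (10.1% and 8.79%) and Etv4-204 (10.22% and 4.9%) were the largest. These are short, and they held only 11.4% and 10.8% of the gene's expected counts. Counting protein-coding transcripts alone, a measure chosen after seeing the data, Etv4 was at 32.5 and 32.82 TPM and Etv5 at 48.54 and 48.48 TPM. On that measure Etv5 stood 1.49-fold and 1.48-fold above Etv4, a difference in log2(TPM + 1) of 0.56 ± 0.0109 that exceeded the limit of 0.27.

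The TPM of Gfra4 lay almost wholly in Gfra4-208 (7.35 and 8.24 TPM, 59.47% and 59.79%) and Gfra4-207 (4.41 and 4.77 TPM, 35.67% and 34.56%), both of which the annotation classes as retaining an intron. Together they held 95.1% and 94.3% of the gene. The 53-nt intron that both keep, at chr2:131041342-131041394, is shown in capitals between the flanking exon bases, 5′ to 3′ on the minus strand of mm10.
Gfra4 retained intron: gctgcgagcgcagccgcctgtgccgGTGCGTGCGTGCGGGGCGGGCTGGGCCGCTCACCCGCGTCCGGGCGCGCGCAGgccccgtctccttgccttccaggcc

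Gfra4-207 also keeps introns of 73 nt (chr2:131040326-131040398) and 540 nt (chr2:131040476-131041015). The 6 protein-coding transcripts of Gfra4 summed to 0.60 and 0.78 TPM, or 4.85% and 5.66% of the gene, which is under the detection threshold. With protein-coding transcripts only, a comparison chosen after seeing the data, 8 of the 9 genes were detected. Gfra4 was the 1 gene of the 9 with 90% or more of its TPM in transcripts not classed as protein-coding in both libraries. The same held for 0.717% of the 13387 detected protein-coding genes, whose median share in such transcripts was 0.990% and 1.07%. Whether these reads come from unspliced RNA, which total RNA contains, was not tested.

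**Figure D4:**
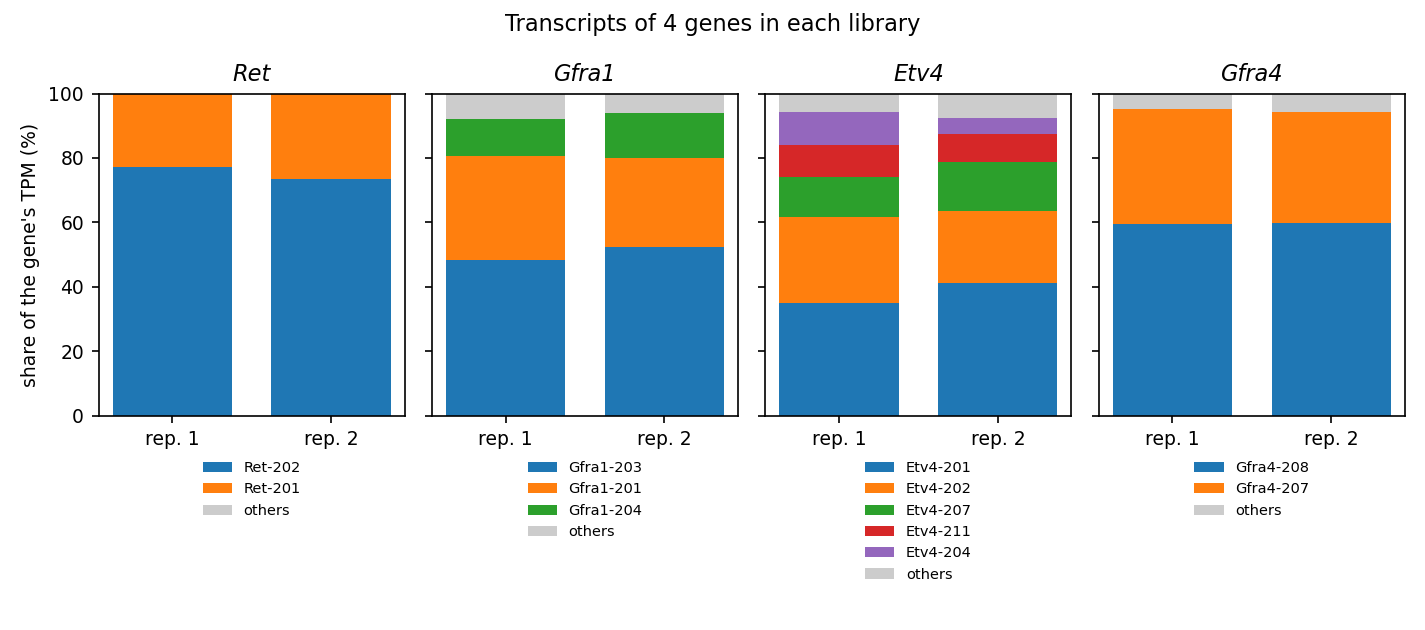
Share of each gene's TPM held by its transcripts (percent), in the replicate 1 and replicate 2 libraries, for Ret, Gfra1, Etv4 and Gfra4, with transcripts under 10% in both libraries joined in grey. Ret-202 (RET9) and Gfra1-203 are the largest of their genes in both libraries, and Gfra4-208 and Gfra4-207 together hold 95.1% and 94.3%.

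Expected counts were whole numbers in both libraries (to within 0.005) for 8 of the 9 genes, as they are where no read is shared out between genes. Gfra1 was the exception. The antisense gene Gm16277 (chr19:58204139-58236047, plus strand) overlaps its end by 444 nt and stood at 7.38 and 7.88 TPM. Gm16277 had 101.81 and 117.01 expected counts, and with the counts of Gfra1 these add up to whole numbers in each library. That is the pattern left where reads are shared out between these genes. The sources used here do not say whether counting used the strand, and how reads of the overlap divide between them remains uncertain. The microRNA gene Mir6973b, inside Gfra4 on the same strand, had 0 counts in both libraries, which allows up to 3 counts in each. It spans 80 nt and covers the 73-nt intron that Gfra4-207 keeps. Whether reads could be assigned to so short a gene was not tested, so the 0 is not read as absence.

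Around the 9 genes, 87 further genes of the pathway were read in 7 lists, and 83 were detected, beside 62.3% of all protein-coding genes measured. The lists were chosen with earlier results of these data known, so nothing is read from their detection counts. Of the 85 with a mean of 10 or more expected counts, 3 (3.53%) were past 1.5-fold between the pools, beside 11.5% of all genes at that depth. They were Artn, Gdf15 and Hoxc11. Of the 78 with a mean of 100 or more, 1 was (1.28%), beside 3.12% of all genes at that depth. In the list of other GDNF family ligands and receptors, several genes were scarce. Artn, the artemin gene, was at 2.2 and 4.02 TPM, Pspn, the persephin gene, was at 1.09 and 0.71 TPM (10 and 7 counts), and Gdf15, a stress-induced hormone gene, was at 0.38 and 0.63 TPM (12 and 22 counts). Gfral, the gene of the GDF15 receptor that works with RET in the hindbrain, had 0 counts in both libraries, which allows up to 3 in each.

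The remaining genes of the GDNF family list were more abundant. Ncam1, a neural cell adhesion molecule gene whose product can serve GDNF and GFRα1 without RET, was at 108.64 and 111.19 TPM. Gas1, which encodes a membrane protein related to the GFRα family, was at 77.27 and 82.65 TPM. Sdc3, the gene of the heparan sulphate proteoglycan syndecan-3, was at 18.28 and 21.48 TPM, and Sorl1, the gene of a sorting receptor for GDNF, was at 6.95 and 7.43 TPM.

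All 23 genes of the list of Gdnf regulators in the metanephric mesenchyme were detected, with medians of 22.8 and 28.4 TPM. The most abundant were Itgb1, the integrin β1 gene (239.38 and 233.82 TPM), Wt1, a zinc-finger transcription factor gene (103.18 and 105.43 TPM), and Npnt, the gene of nephronectin, an integrin ligand (99.91 and 102.16 TPM). Hoxc11, a homeobox gene named after its values were seen, was the 1 gene of this list past 1.5-fold, at 2.36 and 1.40 TPM.

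Of the inhibitors of the signal and their antagonist, 8 of 9 were detected, with medians of 28.0 and 26.7 TPM. Dusp6, a phosphatase gene that acts on MAP kinases, was at 68.62 and 69.85 TPM, Spry2, a feedback inhibitor gene, was at 50.76 and 45.56 TPM, and Bmp7, the gene of a bone morphogenetic protein, was at 35.15 and 37.36 TPM. Grem1, whose product blocks BMP4 and is needed for the first outgrowth of the bud, was below 1 TPM, at 0.22 and 0.24 TPM from 22 and 26 counts.

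The adaptors and kinases below RET were all detected (22 of 22), with medians of 18.1 and 20.5 TPM. Grb10, an imprinted adaptor gene, led at 319.77 and 331.64 TPM, and Shc1, another adaptor gene, was at 79.43 and 85.26 TPM.

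Genes that respond to RET or depend on Etv factors in the tip were all detected (11 of 11), with medians of 19.8 and 17.2 TPM, and their ratios between the pools ran from 0.868 to 1.28. Mmp14, a membrane-bound matrix protease gene, was at 123.84 and 130.35 TPM and Spry1, the sprouty gene that restrains RET in the kidney, at 29.69 and 31.35 TPM. Dusp6, given above, ranked between them.

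Fibroblast growth factor signals, which act through the same Etv factors, were detected for 8 of 8 genes, with medians of 11.6 and 9.98 TPM. The receptor genes led, with Fgfr2 at 84.23 and 88.98 TPM, Fgfr1 at 69.7 and 74.03 TPM and Fgfrl1, a receptor gene without a kinase domain, at 16.85 and 16.99 TPM. All 8 transcription factor genes of the ureteric epithelium were detected, with medians of 39.5 and 38.3 TPM. Gata3, which acts upstream of Ret, was at 88.38 and 79.76 TPM, and Hoxb7, whose promoter is widely used to mark the ureteric bud, was at 51.39 and 47.39 TPM.

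**Figure D5:**
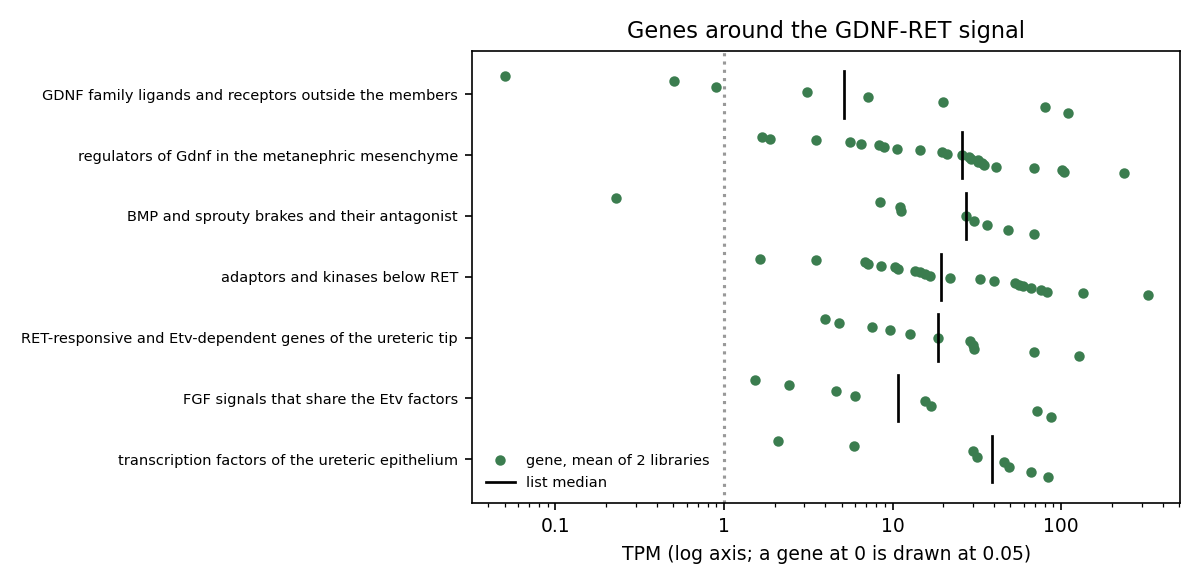
Mean TPM of the 2 libraries (log axis) for each gene of the 7 lists around the signal, with the list median as a bar and 1 TPM as a dotted line. Gfral, at 0, is drawn at 0.05, and the genes left of the dotted line are Gfral, Gdf15, Pspn and Grem1.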

How the data were processed

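Total RNA was measured in 2 libraries of embryonic kidney. The authors made the deposited expected counts by quantifying reads per gene and transcript against GENCODE M4 on build mm10, per the text files that accompany the tables. The deposited TPM and FPKM values scale these by length and library size, and a percent column gives each transcript's part of its gene, per the file headers. The sources used here do not give the aligner, the quantifier or the strand setting. Names, classes, coordinates and sequences came from GENCODE M21, also on mm10, joined on unversioned identifiers (42462 of 43346 genes, 98.0%). All 40 transcripts of the 9 genes matched, 35 with the same length. Protein sequences were not used here.

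Spike-in RNAs took 5.78% and 7.34% of TPM. They were counted as 2 replicates because the labels name them as such, and they were not copies of 1 library (chi-square over degrees of freedom 11.4 over 19818 genes). The single group allows no test between groups. Replicate error was the size of log2 TPM ratio that 95% of genes detected in both libraries stayed within, for genes grouped by mean TPM (1 to 3, 3 to 10, 10 to 30, 30 to 100 and above). A pair of genes differed where the difference in log2(TPM + 1) exceeded the limit of the less abundant gene's bin in the same direction in each library. Limits for transcript shares used shares between 10% and 90%. The calculation was tested on simulated data. Genes varied independently there, apart from a set changed by a fixed fold, so shifts in cell composition were not covered. That test checks the calculation, not how well the limits suit these pools.

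Members and lists were chosen with earlier results of these data known. Named are the 9 genes, the 3 highest genes of each list and any below 1 TPM in both libraries, all of the GDNF family list, overlapping genes, and transcripts at 10% or more. The values of some genes that fall under this rule are not reported here. Etv1, Hoxc11 and the marker genes were named after their values were seen. No gene was sought for a like pattern, since 2 libraries of 1 group give none. Alternatives were thresholds of 0.5 and 5 TPM, a pseudocount of 0.1, FPKM, TPM over nuclear genes, a 2-fold threshold, 100 counts, no filter, 1 limit for all genes, counts scaled by TMM factors (edgeR 4.0.16) or size factors (DESeq2 1.42.0) in R 4.3.3, shares of counts, and each library alone. Python 3.11.15, pandas 2.3.3 and scipy 1.17.1 were used.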

Additional observations from a re-analysis of the deposited data

How the results depend on the processing

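All 9 genes were detected at 0.5 TPM, with FPKM and in each library alone, 7 at 5 TPM, and 8 with protein-coding transcripts only, which was chosen after seeing the data. Of the neighbouring pairs, 1 differed with a pseudocount of 0.1, 1 limit for all genes, FPKM and each library alone, and 3 with protein-coding transcripts only (Etv5 over Etv4, Etv4 over Ret and Gfra2 over Gfra4). Gfra3 was past the fold threshold under each of the 6 alternatives, with a ratio of 2.95 to 3.03. The 2-fold threshold, 100 counts and no filter leave its ratio at 2.99, so they could not change the call. The pathway genes detected ran from 70 (5 TPM) to 84, and the transcripts at 10% or more from 13 (shares of counts) to 17, with 15 and 17 in single libraries. Another unit moved most levels and shares by more than 1 SD: 8 of 9 levels with FPKM, 7 of 9 with TPM over nuclear genes, and 5 of 6 shares with counts, among them Etv4's long form, at 42.8% of TPM and 56.6% of counts. FPKM and TPM over nuclear genes scale every gene of a library by the same factor. Those counts of moved levels thus depend only on the SD of each gene and show no change particular to a gene. Leaving out 1 of 2 libraries cannot move a mean by 1 SD and says nothing of stability. No paired analysis was possible because there is 1 group. The lowest gene count was 75, and depth and the number of libraries both limit the precision.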
